A study of Mus musculus with 9 samples.

Results

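The flow-responsive vasoactive genes of the endothelium are 10 genes here, of the 18193 genes that the arrays measured by at least 1 probe set of their own. They are the transcription factors Klf2, Klf4 and Klf6, the nitric oxide synthase Nos3, the peptide Edn1 and its processing enzyme Ece1, the angiotensin-converting enzyme Ace, and the prostanoid enzymes Ptgs1, Ptgs2 and Ptgis. The members were taken by name, and every probe set that the array annotation assigns to a single one of them was used, which gave 18 probe sets for 9 members. Ptgs1 is not named by any such probe set and has no value here. Klf6 had 5 probe sets, Ece1 had 3, Klf4, Ace and Ptgs2 had 2 each, and Klf2, Nos3, Edn1 and Ptgis had 1 each.

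ECs were isolated from the lungs of NSG mice, which are immunodeficient and were 6 to 8 weeks old when MDA-MB-231-LM2 (MDA231-LM2) cells, a lung-seeking derivative of a human breast cancer line, were injected into the tail vein. The 9 arrays fell into 3 groups of 3. The healthy IgG group held age-matched mice without cancer cells that received control IgG, the metastatic IgG group held mice with lung metastases that received control IgG, and the metastatic B20 group held mice with lung metastases that received the VEGF-A-blocking antibody B20.4.1.1 at 10 mg/kg. Metastatic lungs were taken on day 21, 3 weeks after injection, and ECs of the whole lung were sorted as CD31+ cells without markers of leukocytes, epithelium, fibroblasts, pericytes or cancer cells. ECs of metastatic nodules and of the surrounding lung were therefore pooled, and NSG mice lack T, B and NK cells. Each array is a biological replicate by its label, and with 3 arrays in a group the precision of all values is limited.

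Blood flowing along the vessel wall exerts a shear stress that ECs sense through junctional and membrane proteins. Steady flow acts through a kinase cascade ending in MEF2 factors to raise Klf2 and Klf4, which favor Nos3 and thrombomodulin and hold back inflammatory genes. The vasoactive products of ECs set the tone of the adjacent smooth muscle, with nitric oxide and prostacyclin as dilators and endothelin-1 and angiotensin II as constrictors, and the lung capillary bed is known for its high amount of angiotensin-converting enzyme.

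The promoters of Klf2 and Edn1 are shown because Klf2 responds to flow through MEF2 sites and Edn1 is the constrictor peptide among the members, and they are given for reference, since the arrays measured RNA only. RefSeq windows of 250 bases before to 50 bases after a gene start were found for 8 of the 10 members. Capitals mark 3 motifs searched on both strands, namely a MEF2-type box (CTANNNNTAG), the shear stress element (GAGACC, on the other strand GGTCTC) and the CACCC box bound by KLF proteins (on the other strand GGGTG). Both windows lie on the plus strand of GRCm38.p6, Klf2 at chr8:72318812-72319111 and Edn1 at chr13:42301226-42301525.
Klf2: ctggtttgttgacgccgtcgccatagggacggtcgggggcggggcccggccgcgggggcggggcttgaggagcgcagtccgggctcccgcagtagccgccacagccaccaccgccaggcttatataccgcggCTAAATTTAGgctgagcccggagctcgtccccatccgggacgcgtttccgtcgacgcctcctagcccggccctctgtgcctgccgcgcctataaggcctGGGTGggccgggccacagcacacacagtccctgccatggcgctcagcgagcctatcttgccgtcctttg
Edn1: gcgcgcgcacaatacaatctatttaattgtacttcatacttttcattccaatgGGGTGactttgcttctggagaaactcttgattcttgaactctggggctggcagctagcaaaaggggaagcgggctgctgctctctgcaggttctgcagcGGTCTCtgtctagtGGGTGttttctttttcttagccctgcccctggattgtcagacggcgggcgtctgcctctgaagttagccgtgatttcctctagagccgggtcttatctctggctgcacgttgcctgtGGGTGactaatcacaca
Among the members with a window, the MEF2-type box was found in Klf2 alone, at position -118 from the start, and 3.69% of 32851 mouse promoter windows held one. The shear stress element was found in Edn1 at -98 and in Ptgs2 at -237, against 16.4% of all windows. The CACCC box occurred in windows of Klf2 (at -19), Edn1, Ece1, Ace and Ptgs1, and 57.5% of all windows held this short motif. A match describes the letters and not a bound site.

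With each gene represented by its brightest probe set, none of the 9 measured members was called as different in any of the 3 comparisons at an adjusted p under 0.05 (limma, Benjamini-Hochberg over all genes). Between metastatic IgG and healthy IgG, 0 of 9 members were called, where 9.01% of all genes were, and 0 of 9 had an unadjusted p under 0.05, where 23.3% of all genes did. Their log2 differences ran from -0.14 (Ptgis) to 0.19 (Edn1), with standard errors of 0.0725 to 0.135. The outermost limits of the 95% intervals were -0.395 for Ptgs2 and 0.45 for Edn1, that is 1.31-fold down and 1.37-fold up, for the brightest probe set of each member. Other probe sets of Ece1, Klf6 and Ptgs2 had intervals beyond these limits, from -0.889 to -0.319 for the dimmest of Ece1, up to 0.592 for the dimmest of Klf6 and from -0.422 to 0.466 for the dimmer of Ptgs2. The median size of the members' log2 differences was 0.116, close to 0.12 over all genes, and their median signed difference was -0.03, against -0.001 over all genes. Klf4, Ece1 and Ptgis, 3 of 9 members, had metastatic IgG arrays that did not overlap the healthy arrays, all below them, a share near the 29.1% of all genes. In sorted bulk samples, fewer cells of a type and less RNA per cell cannot be told apart.

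**Figure D1:**
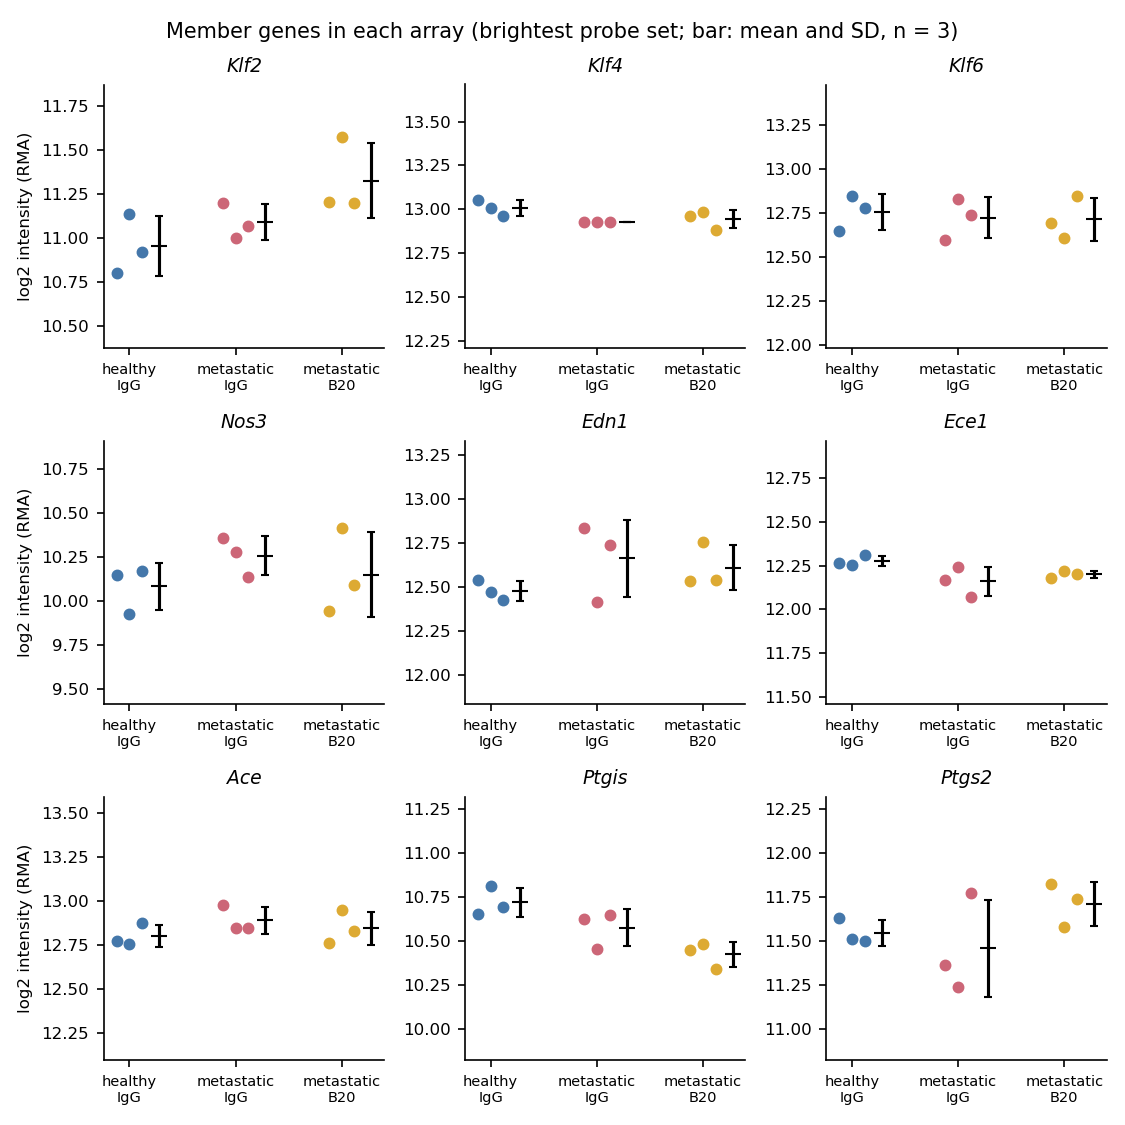
Each panel shows 1 member by its brightest probe set, with the RMA log2 intensity on the vertical axis (every panel spans 1.5 log2 units) and the 3 groups on the horizontal axis; each point is 1 array, and the bars give the mean and SD of 3 arrays. The B20 arrays of Klf2 lie above, and those of Ece1 and Ptgis below, the healthy arrays. The metastatic IgG arrays of Klf4, Ece1 and Ptgis lie below the healthy arrays, and the groups of the other members overlap.

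The factor Klf2, which is induced by steady flow and restrains endothelial inflammation, had log2 intensities of 10.80, 11.14 and 10.92 in the healthy arrays, 11.20, 11.00 and 11.07 in the metastatic IgG arrays and 11.21, 11.58 and 11.20 in the B20 arrays. Healthy and metastatic IgG arrays overlapped, and the 3 B20 arrays were above all 3 healthy arrays. The log2 difference was 0.14 ± 0.106 (SE, n = 3 per group; adjusted p = 0.5, limma) for metastatic IgG against healthy IgG. For B20 against healthy IgG it was 0.37 ± 0.131 (1.3-fold, 95% interval 0.074 to 0.673), with an unadjusted p of 0.0204 and an adjusted p of 0.146 (limma), which did not pass. Without B20 replicate 2, the highest array, the value was 0.25, with an adjusted p of 0.325 (limma).

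Klf4, a close relative of Klf2 with shared endothelial targets, was among the brightest probe sets of the array. Its log2 intensities were 13.06, 13.01 and 12.96 in healthy arrays, 12.93 in each of the 3 metastatic IgG arrays, and 12.96, 12.98 and 12.88 in B20 arrays. The metastatic IgG arrays lay just below the healthy ones, by -0.08 ± 0.0725 (adjusted p = 0.573, limma), within the error of the fit. The other Klf4 probe set overlapped between all groups, with values of 11.63 to 12.03 over all arrays.

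Klf6, an early response factor that is also induced by vessel injury, had 5 probe sets whose differences spread from -0.03 to 0.25 in metastatic IgG against healthy IgG, with no call. The brightest one gave 12.65, 12.84 and 12.78 in healthy arrays, 12.60, 12.83 and 12.74 in metastatic IgG arrays and 12.69, 12.60 and 12.84 in B20 arrays, so that all groups overlapped. Of the other 4, 3 were higher in every B20 array than in every healthy array. The brighter of these read 12.02, 12.14 and 12.03 in healthy arrays and 12.28, 12.33 and 12.40 in B20 arrays, a log2 difference of 0.27 ± 0.0837 with an adjusted p of 0.107 (limma, over all probe sets), and the other 2 differed by 0.24 and 0.25, with adjusted p of 0.211 and 0.17. The probe sets of Klf6 thus did not give 1 answer, and none passed.

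Klf2, Klf4, Klf6 and Ptgs2 are themselves early response genes, so the level of immediate early genes, which cell isolation can induce, is given beside them. The mean log2 level of 16 such genes was 11.94 to 11.99 in healthy arrays, 11.79 to 11.94 in metastatic IgG arrays and 11.90 to 12.04 in B20 arrays. Fosb, an AP-1 subunit, was the 1 of 16 that fell in metastatic IgG against healthy IgG, where 3.46% of all genes fell. Its fall was 0.43 ± 0.107 (adjusted p = 0.0432, limma). The call was lost when any 1 array but metastatic IgG replicate 3 was left out (adjusted p = 0.0975 to 0.132, limma). Of the 16 genes, 15 had a positive difference in B20 against metastatic IgG (median 0.1, against -0.006 over all genes). None of them was called, where 0% of all genes were. The part of cell isolation in the values of the members was not tested.

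Nos3, the endothelial nitric oxide synthase, read 10.14, 9.93 and 10.17 in healthy arrays, 10.36, 10.28 and 10.14 in metastatic IgG arrays and 9.94, 10.41 and 10.09 in B20 arrays. All groups overlapped. The differences were 0.18 ± 0.0991 for metastatic IgG against healthy IgG (adjusted p = 0.339, limma) and -0.11 ± 0.13 for B20 against metastatic IgG (adjusted p = 0.886, limma).

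Edn1, the precursor of endothelin-1, read 12.54, 12.47 and 12.42 in healthy arrays, 12.83, 12.42 and 12.74 in metastatic IgG arrays and 12.53, 12.76 and 12.54 in B20 arrays. Of the metastatic IgG arrays, 2 were above the healthy range and 1 was just below it, which gave the largest positive difference of a member in that comparison, 0.19 ± 0.115 (adjusted p = 0.389, limma). The value moved with single arrays, to 0.31 (adjusted p = 0.0882, limma) without metastatic IgG replicate 2 and 0.10 (adjusted p = 0.705, limma) without metastatic IgG replicate 1, where Nos3 was higher at 0.13. Nos3 also exceeded Edn1 without healthy replicate 3 (0.22 against 0.16) or metastatic IgG replicate 3 (0.24 against 0.15). Klf2 exceeded Edn1 without healthy replicate 2 (0.23 against 0.18).

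Ece1 encodes the protease that cleaves big endothelin to its active form, and its probe sets spread the most among the members in both comparisons with healthy IgG. The dimmest of its 3 probe sets read 9.56, 9.67 and 9.84 in healthy arrays, 9.11, 8.86 and 9.28 in metastatic IgG arrays and 9.44, 9.02 and 9.22 in B20 arrays. Every metastatic array, with IgG or with B20, was below every healthy array. In the fit over 34945 probe sets it fell by 0.60 ± 0.125 in metastatic IgG against healthy IgG (1.52-fold lower, 95% interval -0.889 to -0.319, adjusted p = 0.0242, limma), 1 of 18 member probe sets called, where 7.41% of all probe sets were. Against healthy IgG the B20 difference was -0.47 ± 0.125 (adjusted p = 0.0711, limma), and 0 of 18 member probe sets were called there, where 5.41% of all were.

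The other Ece1 probe sets were brighter and moved less. The brightest, which represents the gene, read 12.27, 12.25 and 12.31 in healthy arrays, 12.17, 12.24 and 12.07 in metastatic IgG arrays and 12.18, 12.22 and 12.20 in B20 arrays, a difference of -0.12 ± 0.0788 (adjusted p = 0.433, limma) between the first and second groups. The third probe set differed by -0.10 ± 0.0911. Within each array, the dimmest minus the brightest probe set was -2.71 to -2.47 in healthy arrays and -3.38 to -2.80 in metastatic IgG arrays, and these ranges did not overlap. This gap was examined after the fall of the dimmest probe set had been seen and is given as a description, with no test. With 1 array left out, the difference of the dimmest probe set ran from -0.70 to -0.49. Its call was lost without healthy replicate 2 (-0.61, adjusted p = 0.0753, limma), healthy replicate 3 (-0.53, 0.0844), metastatic IgG replicate 1 (-0.62, 0.0675) or metastatic IgG replicate 2 (-0.49, 0.0567).

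**Figure D2:**
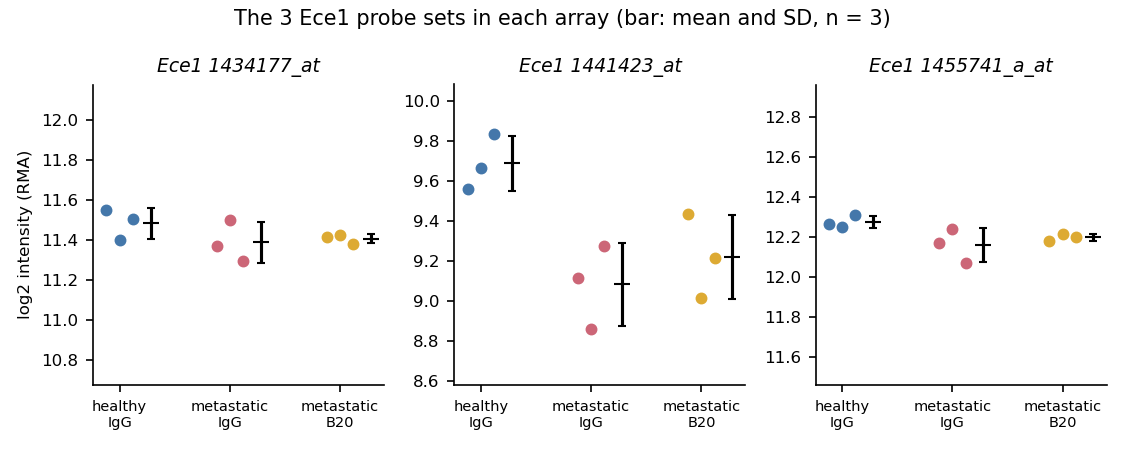
RMA log2 intensity (vertical axis) of the 3 Ece1 probe sets in each array of the 3 groups, with points for arrays and bars for the mean and SD of 3 arrays; every panel spans 1.5 log2 units. The dimmest probe set, in the middle panel, is lower in all 6 metastatic arrays than in the 3 healthy arrays. So is the brightest probe set, by a smaller shift of about 0.1. The remaining probe set shifts by about 0.1, and its groups overlap.

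Ace, which makes angiotensin II and degrades bradykinin, was bright and steady. Its representing probe set read 12.77, 12.75 and 12.87 in healthy arrays, 12.98, 12.85 and 12.84 in metastatic IgG arrays and 12.76, 12.95 and 12.83 in B20 arrays. The groups overlapped, the difference was 0.09 ± 0.0807 (adjusted p = 0.572, limma), and the second Ace probe set gave 0.10 ± 0.0908.

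Ptgis, the prostacyclin synthase, read 10.65, 10.81 and 10.69 in healthy arrays, 10.63, 10.45 and 10.65 in metastatic IgG arrays and 10.45, 10.48 and 10.34 in B20 arrays. The highest metastatic IgG array came within 0.01 of the lowest healthy array, and all 3 B20 arrays lay below the healthy range. The differences from healthy IgG were -0.14 ± 0.0887 with IgG (adjusted p = 0.385, limma) and -0.30 ± 0.0828 with B20 (1.23-fold lower, 95% interval -0.486 to -0.106, unadjusted p = 0.00683, adjusted p = 0.0774, limma). The latter passed in 2 of the alternatives, with an adjusted p of 0.0328 where dim genes were left out and 0.0395 with trended and robust variances. Fibroblasts, which express Ptgis too, had 3 of 9 markers higher and 1 lower in that comparison, with a mean log2 marker level of 9.35 to 10.28 in healthy and 9.94 to 10.25 in B20 arrays, and their part in the result was not tested.

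Ptgs2, the inducible cyclooxygenase, was the member with the widest spread in metastatic IgG arrays. It read 11.63, 11.51 and 11.50 in healthy arrays, 11.36, 11.24 and 11.77 in metastatic IgG arrays and 11.82, 11.58 and 11.74 in B20 arrays. Metastatic IgG replicate 3 was above all healthy arrays and the other 2 were below them, which gave -0.09 ± 0.135 (adjusted p = 0.768, limma) against healthy IgG. The B20 difference from metastatic IgG, 0.25 ± 0.142, was the largest of a member in that comparison and did not pass (adjusted p = 0.718, limma). It was 0.41 without metastatic IgG replicate 3 (adjusted p = 0.401, limma) and 0.14 without metastatic IgG replicate 2 (adjusted p = 0.883, limma), where Klf2 was higher at 0.19. Klf2 also exceeded Ptgs2 without metastatic IgG replicate 1 (0.29 against 0.21), B20 replicate 1 (0.30 against 0.20) or B20 replicate 3 (0.30 against 0.24). The dimmer Ptgs2 probe set overlapped between groups in all comparisons.

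For B20 against metastatic IgG as a whole, 0 of 9 members and 0% of all genes were called. At an unadjusted p under 0.05, 0 of 9 members stood beside 8.04% of all genes, and 0 of 9 members had arrays that did not overlap beside 13.1% of all genes. Among probe sets 0% were called as well. The 95% intervals of the members, by their brightest probe sets, reached from -0.405 (Nos3) to 0.577 (Ptgs2), so differences of up to 1.49-fold were not excluded by these arrays. For B20 against healthy IgG, 0 of 9 members were called, where 6.44% of all genes were. At an unadjusted p under 0.05 there were 2 of 9 members, Klf2 and Ptgis, against 21.2% of all genes, and 3 of 9, Klf2 above and Ece1 and Ptgis below, had arrays that did not overlap, against 26.9% of all genes. Both shares were near the background.

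**Figure D3:**
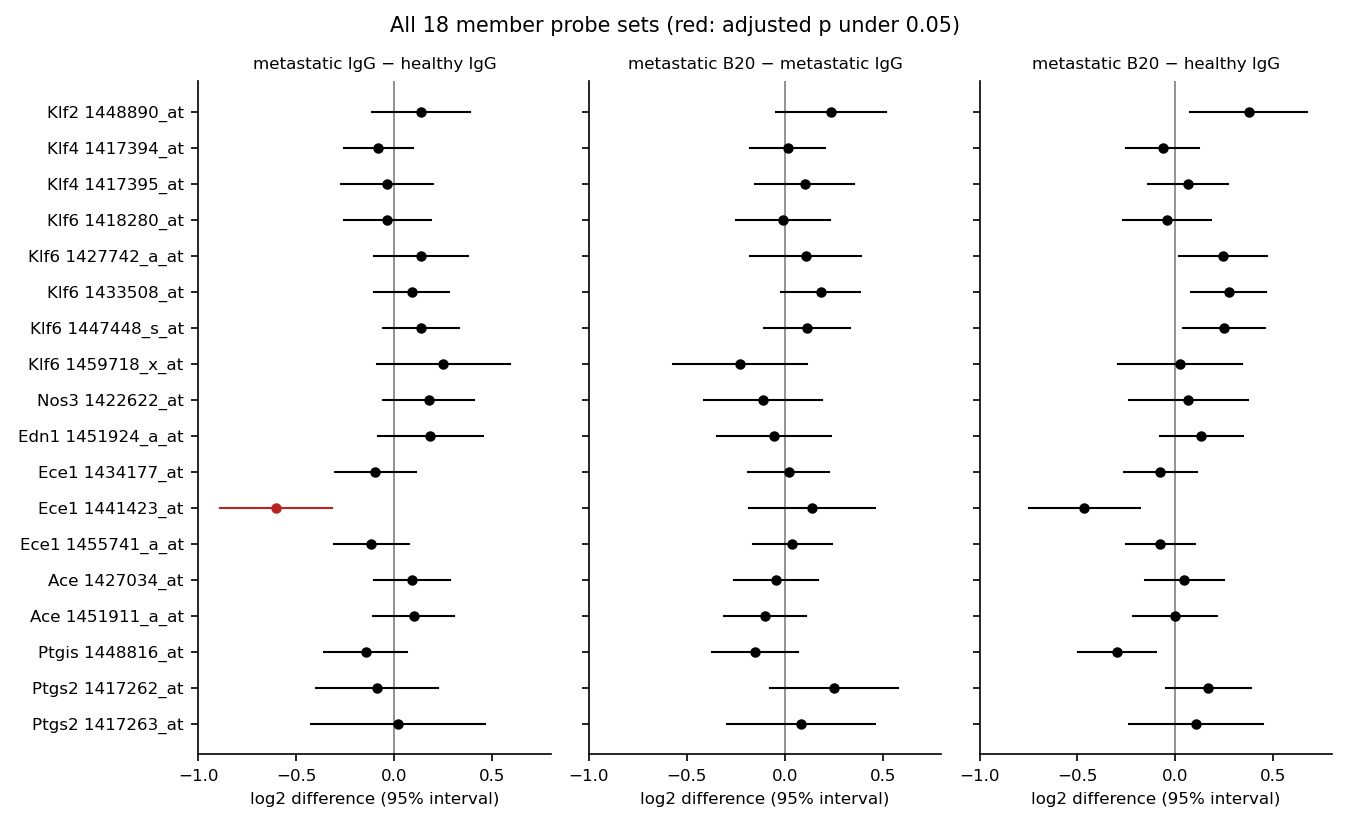
Log2 difference (points) with its 95% interval (lines) for each of the 18 member probe sets, named on the vertical axis, in the 3 comparisons of 3 arrays against 3, from limma over all probe sets; red marks an adjusted p under 0.05. The dimmest Ece1 probe set in metastatic IgG against healthy IgG, at -0.60, is the 1 interval in red.

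The wider pathways around the members were described by 9 lists, which held 124 measured genes outside the members. Of these, 8 rose and 8 fell in metastatic IgG against healthy IgG, 12.9% in all. Of all genes, 9.01% were called there, with 5.55% higher and 3.46% lower. In B20 against metastatic IgG none of the 124 was called, where 0% of all genes were. In B20 against healthy IgG 6 rose and 8 fell, 11.3% in all. Of all genes, 6.44% were called in that comparison, with 4.15% higher and 2.29% lower. The metastatic IgG and B20 groups were both set against the same healthy arrays, so these counts are not independent.

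Of the other KLF factors, 3 of 13 measured fell and none rose in metastatic IgG against healthy IgG, with a median of -0.15 and all 13 differences below 0. Klf12, a transcriptional repressor, fell by 0.71 ± 0.128 (adjusted p = 0.0126, limma), from 10.32 ± 0.154 to 9.61 ± 0.217 (SD, n = 3). Klf9, which responds to glucocorticoids and thyroid hormone, fell by 0.41 ± 0.078, and its 6 other probe sets ranged from -0.908 to 0.197. Without healthy replicate 2 its adjusted p was 0.0588 (limma). Klf11, a TGF-beta-inducible factor, fell by 0.40 ± 0.0935, and its call was lost when any 1 array but metastatic IgG replicate 3 was left out (adjusted p = 0.0738 to 0.12, limma). Whether these relatives differed from Klf2, Klf4 and Klf6 was not tested.

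None of 22 genes of flow sensing and the kinase axis to MEF2 was called, with a median of -0.01. The smallest p values belonged to Flt4, a VEGF-C receptor that also senses shear, at 0.30 ± 0.0825 (adjusted p = 0.064, limma), and Mef2c, an upstream factor of Klf2, at 0.31 ± 0.0892 (adjusted p = 0.0757, limma), and neither passed. Of 14 genes induced by laminar flow, 1 fell. It was Cyp1a1, a target of the aryl hydrocarbon receptor, whose log2 level was 10.10 ± 0.358 in healthy, 7.66 ± 0.168 in metastatic IgG and 8.47 ± 0.303 in B20 arrays (SD, n = 3). The fall of 2.44 ± 0.174 (5.41-fold, adjusted p = 0.000176, limma) was the largest of any listed pathway gene, and the B20 arrays all lay between the other groups. The median of that list was -0.04.

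Of 12 genes induced by disturbed flow, 3 rose and none fell, with a median of 0.14. The chemokine Cxcl1 rose by 1.07 ± 0.138 (2.1-fold, adjusted p = 0.00265, limma) and the pentraxin Ptx3 by 0.96 ± 0.193, though Ptx3 lost its call without metastatic IgG replicate 1 (adjusted p = 0.0667, limma) or replicate 3 (0.0582) and its other probe set differed by 0.048. Angpt2, the Tie2 antagonist stored in ECs, rose by 0.34 ± 0.0776 and lost its call when any 1 array but metastatic IgG replicate 3 was left out (adjusted p = 0.0764 to 0.119, limma). Its level was 11.11 ± 0.0434 in healthy, 11.45 ± 0.0703 in metastatic IgG and 11.18 ± 0.0499 in B20 arrays (SD, n = 3), and the difference between B20 and metastatic IgG, -0.27, did not pass (adjusted p = 0.463, limma).

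In the nitric oxide pathway 1 of 20 genes rose and 1 fell. Nos2, the inducible synthase, rose by 0.74 ± 0.0761 (1.67-fold, adjusted p = 0.000971, limma), with all metastatic IgG arrays above the healthy ones (8.28 ± 0.0676 in healthy and 9.02 ± 0.0279 in metastatic IgG arrays, SD, n = 3). Prkg1, the cGMP-dependent kinase of smooth muscle and other cells, fell by 0.69 ± 0.0861 (adjusted p = 0.00229, limma), while its other probe set differed by -0.348. Macrophage markers, whose cells can express Nos2, rose in 11 of 15 genes, with a mean log2 level of 8.26 to 8.61 in healthy, 9.36 to 9.56 in metastatic IgG and 9.37 to 9.80 in B20 arrays, and their part in the rise of Nos2 was not tested.

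In the endothelin system, Ece2, a relative of Ece1, rose by 0.56 ± 0.0986 (adjusted p = 0.0118, limma), while its other probe set differed by 0.179. Ednrb, the endothelin receptor that marks aerocytes, the large gas-exchange capillary cells, fell by 0.44 ± 0.0886 (adjusted p = 0.019, limma), with its 2 other probe sets at -0.647 and -0.579. Its call was lost without healthy replicate 2 or 3 or metastatic IgG replicate 1 or 2 (adjusted p = 0.0572 to 0.0738, limma). The aerocyte list, which holds Ednrb itself, had 1 of 6 genes higher (Apln) and 1 lower (Ednrb). Its median was -0.259, with 5 of 6 differences below 0. In the renin-angiotensin and kinin system 1 of 11 genes fell, Mas1, the receptor of angiotensin 1-7, by 0.51 ± 0.114 at a low level (6.86 ± 0.189 in healthy arrays, SD, n = 3). The call of Mas1 was lost when any 1 array but healthy replicate 3 was left out (adjusted p = 0.0501 to 0.105, limma).

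Around the prostanoid members, 1 of 17 genes rose. It was Abcc4, a transporter that exports prostaglandin E2, by 1.00 ± 0.129 (2-fold, adjusted p = 0.00275, limma). Among 11 genes of other vasoactive peptides 2 rose and 1 fell. Adm, the dilator adrenomedullin, rose by 1.49 ± 0.152 (2.82-fold, adjusted p = 0.000941, limma), from 9.55 ± 0.178 to 11.05 ± 0.285 (SD, n = 3), and stood at 10.72 ± 0.49 with B20. The other Adm probe set differed by 1.1 in metastatic IgG against healthy IgG. Apln, the ligand of the apelin receptor, rose by 0.59 ± 0.103, and Npr3, the clearance receptor of natriuretic peptides, fell by 0.94 ± 0.144 (adjusted p = 0.00608, limma).

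**Figure D4:**
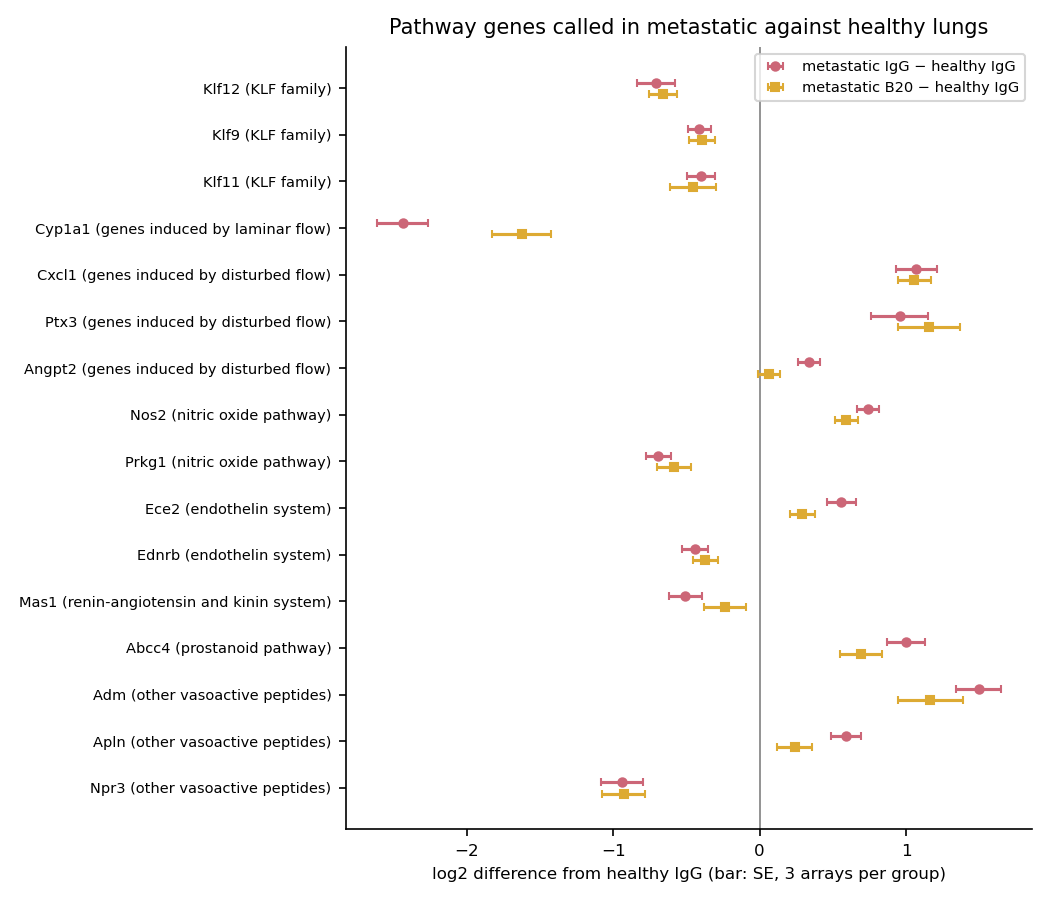
Log2 difference from healthy IgG (horizontal axis, bars are standard errors, 3 arrays per group) of the 16 pathway genes called in metastatic IgG against healthy IgG, with circles for metastatic IgG and squares for metastatic B20. Cyp1a1 (-2.44) and Adm (1.49) mark the ends of the IgG values, and both series of points share the healthy arrays.

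The sorted cells carried all 12 pan-endothelial markers, with a mean log2 level of 12.83 to 12.89 in every array. Of the 12, 1 rose in metastatic IgG against healthy IgG, Emcn, by 0.43 ± 0.103 (adjusted p = 0.0393, limma), and the median was -0.027. In B20 against healthy IgG 1 rose and 1 fell. Healthy and metastatic arrays separated on the leading principal component (46.6% of variance), and arrays of 1 group correlated at 0.991 or more. The beta-actin 3' probe set exceeded the 5' one by 0.609 to 0.62 in healthy, 0.488 to 0.555 in metastatic IgG and 0.526 to 0.62 in B20 arrays. A larger excess is a sign of less intact RNA, and the healthy and metastatic IgG ranges did not overlap. The part of RNA integrity in the differences was not tested. In metastatic IgG against healthy IgG, where 5.55% of all genes rose and 3.46% fell, 2 of 10 arterial markers fell (median -0.016). Of the venous markers 3 of 7 rose, while 4 of 7 had a difference below 0 (median -0.049). Of the general capillary markers 1 of 7 fell (median 0.037), and of the lymphatic ones 1 of 6 rose (median 0.185). Among other cells, 1 of 7 neutrophil (median 0.116), 2 of 9 pericyte and smooth muscle (0.223) and 2 of 10 epithelial markers (0.207) rose. Of the fibroblast markers 3 of 9 rose and 1 fell, with a median of -0.198 and 5 of 9 differences below 0. Of the platelet markers 1 of 7 fell (median -0.06), and 0 of 6 mast cell markers were called. The part of these shifts in the values of the members was not tested.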

How the data were processed

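RNA of sorted lung ECs was amplified from small inputs with a 3' IVT kit and hybridized to Affymetrix Mouse Genome arrays. The deposited log2 intensities had been RMA-normalized by the authors with Chipster and were not changed further. Of 45101 probe sets, 9211 had no gene name in the platform annotation, 932 named several genes and 34958 named 1. Without 13 control probe sets, 34945 were tested, for 18193 genes, each represented by its probe set of highest mean over all 9 arrays. Probe sets were also tested singly.

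limma 3.58.1 (R 4.3.3) was run by comparison, on 6 arrays at a time, without a block, with Benjamini-Hochberg adjustment over all genes or all probe sets and calls at 0.05. SE refers to the difference between 2 group means. Lists were described by counts and medians, with no set test. The members and lists were chosen with earlier results of these data known. Of each pathway and marker list, up to 3 genes called higher and 3 called lower with the largest difference were eligible to be named, or the 2 of smallest p. The symbols Ctgf and Cyr61 were updated through RefSeq. The fits were tested on simulated data. Numbers were not taken as pairs, because the methods of the paper name a test between 2 groups and mention no block. Same-numbered arrays did not deviate together (correlations -0.0757 to 0.0138). The settings varied were 1 fit over all 9 arrays, a replicate block, a dim filter, averaged probe sets, probe sets of unshared ending, median-centred arrays, trended and robust variances, the thresholds of the study and each array left out. Those thresholds were a log2 difference above 0.75, p under 0.05 and adjusted p under 0.25. The paper gave them for secreted genes raised at week 3 in its time course, and here they were applied in both directions. Plots used matplotlib 3.10.9 and pandas 2.3.3 (Python 3.11.15).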

Additional observations from a re-analysis of the deposited data

How the results depend on the processing

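The number of members called stayed at 0 in most settings. It was 1 when the probe sets of a gene were averaged in metastatic IgG against healthy IgG (Ece1, -0.27, adjusted p = 0.0405, limma), and in B20 against healthy IgG it was 1 with the dim filter and 1 with trended and robust variances (Ptgis both times). Under the thresholds of the study for secreted genes, 507 and 430 genes were called in these comparisons. Trended and robust variances gave 1848 in B20 against healthy IgG. With each array left out in turn, 869 to 1478 genes were called in metastatic IgG against healthy IgG, 645 to 1139 in B20 against healthy IgG and 0 in B20 against metastatic IgG, members called stayed at 0, and member probe sets called were 0 to 1 in each comparison with healthy IgG. The B20 probe set call was the dimmest Ece1 probe set without B20 replicate 1 (-0.57, adjusted p = 0.038, limma).

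With the replicate number as a block, 1176, 0 and 841 genes and 0 members were called in metastatic IgG against healthy IgG, B20 against metastatic IgG and B20 against healthy IgG, and 1 member probe set remained called in the first. The block changed no call on a member, and same-numbered arrays share only a number.

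Of 117 member values per comparison, 112, 109 and 109 kept direction and side of the threshold, in the same order. Values near 0 changed sign without a call. With averaged probe sets Klf6 was 0.1159, 0.033 and 0.1489 in the 3 comparisons, and 0.0065 on median-centred arrays in B20 against metastatic IgG. With an array left out, Klf6 ranged from -0.0894 to 0.0282 in the first comparison, -0.074 to 0.0461 in the second and -0.1079 to 0.0122 in the third. Ptgs2 ranged from -0.2419 to 0.0232 in the first, Edn1 from -0.1768 to 0.032, Ece1 from -0.0048 to 0.079 and Klf4 from -0.0048 to 0.045 in the second, and Nos3 from -0.0664 to 0.1699 and Ace from -0.0052 to 0.0888 in the third. The causes were not tested. Of 17 pathway and immediate early genes named as called, 10 kept the call in all alternatives, and Klf9, Klf11, Ptx3, Angpt2, Ednrb, Mas1 and Fosb lost it in at least 1. The alternatives for these genes, and the replicate block and the fit of all 9 arrays for member probe sets, were chosen after seeing the data.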
